A study of Mus musculus with 21 samples.

Results

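The genes described here are 31 listed genes of cholesterol synthesis and sterol regulation, chosen by name: 7 of the mevalonate pathway, 11 of sterol synthesis, 7 regulators and 6 genes of sterol export, storage and transport. Of these, 27 were measured among the 22180 genes of the arrays, each by its probe set with a single gene symbol and, where there were several, the highest mean over all arrays. The other 4 were not analysed here. Acat2, Nr1h2 and Soat1 had no probe set in the annotation used, and Idi1 had only a probe set shared with another gene.

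RNA of mouse mammary carcinoma was hybridised to 21 Affymetrix whole-transcript arrays, and values are log2 signals. The groups were tumours from a 1:1 mixture of Py117 and Py8119 cells (mixed tumours, 5 arrays), Py8119 tumours (5), Py117 tumours (5), Py8119 cells in culture (3) and Py117 cells in culture (3). Both lines were derived from MMTV-PyMT mice, in which the MMTV promoter drives the polyomavirus middle T oncogene in mammary tissue. Tumours grew from 1000000 cells placed with 50% matrigel in mammary fat pad 4, and cultures were kept in Ham's F12K medium with 5% serum. All groups were untreated, and tumours were collected when irradiation would have been due. The host mice's age and strain were not given in the sources used here, each line is a single derived line, and tumours contain host cells.

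Cells make cholesterol from acetyl-CoA by way of mevalonate, farnesyl diphosphate, squalene and lanosterol. The genes of this route are switched on together by the SREBP transcription factors, which stay in the endoplasmic reticulum with Scap and Insig proteins while sterols are plentiful and are released by cleavage in the Golgi when sterols fall. Liver X receptors such as that encoded by Nr1h2 respond to oxysterols and drive genes of sterol export, among them Abca1 and Abcg1, and also Mylip and Srebf1. Growing tumour cells need cholesterol for membranes, and macrophages, which are common in mammary tumours, handle large amounts of it.

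The promoters of the synthesis genes are shown because most of these genes differed in the same direction between tumours. Of the 31 genes, 25 had an entry in the RefSeq promoter windows (GRCm38.p6, 250 bases before to 50 after the start of the gene). Stard4, Fdft1, Abcg1, Sqle, Fdps and Npc1 had none. Motifs were searched on both strands. The sterol response element as TCACNCCAC was found in 1 of 25 genes, Hmgcs1, against 1.44% of all 27025 genes with a window. Only this exact pattern was searched, so a window without a match may still hold an element with other letters. CCAAT, the box bound by NF-Y, was found in 21 of 25 genes and in 14 of 15 mevalonate and sterol synthesis genes, against 41.1% of all genes. GGGCGG, the GC box, was found in 23 of 25 genes and 14 of 15 synthesis genes, against 38.2% of all genes, and CACGTG, the E-box, in 6 of 25 and 3 of 15, against 8.09%. None of the 46 sterol response element and CCAAT matches overlapped another of these motifs. A gene with several windows was counted once if any of them held the motif.

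The windows of the 5 synthesis genes with the largest called difference between Py8119 and Py117 tumours, among those with an entry, are printed 5′ to 3′ on the strand of the gene, with CCAAT, its reverse complement ATTGG and the sterol response element in capitals. Their positions are chr8:64733529-64733828 (minus strand) for Msmo1, chr5:4104648-4104947 (minus) for Cyp51, chr19:6067801-6068100 (minus) for Tm7sf2, chr8:122443373-122443672 (minus) for Mvd and chr13:119690101-119690400 (plus) for Hmgcs1.
Msmo1: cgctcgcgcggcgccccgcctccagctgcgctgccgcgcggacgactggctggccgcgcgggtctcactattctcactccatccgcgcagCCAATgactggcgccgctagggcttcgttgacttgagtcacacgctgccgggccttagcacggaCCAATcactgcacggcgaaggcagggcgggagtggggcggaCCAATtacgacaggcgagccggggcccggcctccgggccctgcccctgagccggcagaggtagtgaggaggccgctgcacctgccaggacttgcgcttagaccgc
Cyp51: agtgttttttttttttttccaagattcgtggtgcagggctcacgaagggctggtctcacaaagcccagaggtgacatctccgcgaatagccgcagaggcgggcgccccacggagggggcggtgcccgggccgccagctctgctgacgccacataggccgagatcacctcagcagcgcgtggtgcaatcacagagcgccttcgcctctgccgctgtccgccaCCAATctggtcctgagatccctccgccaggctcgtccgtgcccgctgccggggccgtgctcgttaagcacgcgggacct
Tm7sf2: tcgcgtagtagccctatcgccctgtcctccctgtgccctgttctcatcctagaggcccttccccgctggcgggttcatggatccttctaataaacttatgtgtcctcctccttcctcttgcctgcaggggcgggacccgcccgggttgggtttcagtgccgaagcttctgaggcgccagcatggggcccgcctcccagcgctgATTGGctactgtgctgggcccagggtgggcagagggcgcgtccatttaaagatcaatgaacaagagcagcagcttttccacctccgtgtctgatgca
Mvd: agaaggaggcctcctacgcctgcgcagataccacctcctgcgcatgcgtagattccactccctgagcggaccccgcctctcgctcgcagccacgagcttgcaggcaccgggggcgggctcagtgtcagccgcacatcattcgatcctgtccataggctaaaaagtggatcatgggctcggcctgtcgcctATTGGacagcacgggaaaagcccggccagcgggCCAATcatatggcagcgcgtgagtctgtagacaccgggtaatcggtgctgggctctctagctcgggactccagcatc
Hmgcs1: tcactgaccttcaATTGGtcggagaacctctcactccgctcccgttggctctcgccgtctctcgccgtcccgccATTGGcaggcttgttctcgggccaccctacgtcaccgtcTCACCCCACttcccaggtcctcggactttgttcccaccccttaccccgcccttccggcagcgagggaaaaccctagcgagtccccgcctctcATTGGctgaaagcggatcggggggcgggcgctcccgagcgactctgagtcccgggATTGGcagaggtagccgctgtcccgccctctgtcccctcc

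The Msmo1 window held 3 CCAAT boxes, at -160, -96 and -55 from the start of the gene (first base of each), and the Mvd window held 2, at -60 and -27. The Cyp51 and Tm7sf2 windows held 1 each, at -29 and -47. The Hmgcs1 window held 4 CCAAT boxes and the sterol response element TCACCCCAC at -137 to -129. These matches describe the letters of the windows and were not tested for use in these cells.

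Array medians lay between 5.24 and 5.53, and arrays of a group correlated over all genes with r between 0.969 and 0.994. The 95th percentile of 1394 olfactory and vomeronasal receptor genes, 5.31, served as a measure of background, and no group mean of the 27 genes lay under it. Epithelial markers (8 genes) averaged 6.38 to 6.54 in Py8119 tumours, 8.67 to 9.36 in Py117 tumours, 6.32 to 6.49 in Py8119 culture and 9.50 to 9.54 in Py117 culture. Py8119 cells in culture had Epcam at 5.07 ± 0.21 and Esrp1 at 5.09 ± 0.05 (SD, n = 3), both under the background value. Among Py117 tumours, replicates 1, 4 and 5 stood apart in adipocyte markers (9 genes), with mean log2 signals of 8.20, 7.31 and 8.37 against 5.70 and 5.96 in replicates 2 and 3.

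The mevalonate pathway turns acetyl-CoA into farnesyl diphosphate. Hmgcs1, which makes HMG-CoA (probe set 17290173), had log2 signals of 10.50, 10.62, 10.43, 10.58 and 10.69 in mixed tumours, 10.001, 10.47, 10.14, 10.51 and 10.43 in Py8119 tumours and 9.25, 9.30, 9.19, 9.73 and 9.56 in Py117 tumours. In culture it had 10.54, 10.25 and 9.99 in Py8119 cells and 10.45, 10.41 and 10.35 in Py117 cells. The Py117 tumours lay below every other array, and the other 4 groups overlapped in part. Between tumours Hmgcs1 was higher in Py8119 than in Py117 by 0.90 ± 0.12 (log2 difference ± SE, adjusted p = 7.83e-06, n = 5 and 5), a 1.87-fold difference.

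Fdps, which makes farnesyl diphosphate (17406908), had 9.85, 10.18, 9.69, 10.03 and 10.11 in mixed tumours, 9.77, 9.80, 9.79, 9.98 and 9.84 in Py8119 tumours and 8.26, 8.39, 8.54, 8.24 and 8.14 in Py117 tumours. Cultures had 9.95, 9.71 and 9.45 for Py8119 and 9.49, 9.52 and 9.55 for Py117. All 5 Py117 tumours lay below the other 16 arrays, with a wide gap. The difference between Py8119 and Py117 tumours was 1.52 ± 0.10 (adjusted p = 1.81e-09), the widest of the 5 measured mevalonate genes. Mvd, which makes isopentenyl diphosphate, differed by 1.04 ± 0.10, Mvk, the mevalonate kinase, by 0.81 ± 0.11 and Pmvk, the next kinase, by 0.43 ± 0.12 (adjusted p = 0.00995). In all 4 of these genes and in Hmgcs1 the Py8119 and Py117 tumours did not overlap.

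Sterol synthesis proper begins with squalene. Fdft1, squalene synthase (17307588), had 9.54, 9.81, 9.53, 9.80 and 9.83 in mixed tumours, 9.85, 9.78, 9.65, 9.66 and 9.72 in Py8119 tumours and 8.24, 8.58, 8.86, 8.61 and 8.44 in Py117 tumours. Cultures had 9.87, 9.64 and 9.32 for Py8119 and 10.05, 9.96 and 9.98 for Py117. Py117 cells thus had the highest Fdft1 signals of the 21 arrays in culture and the lowest as tumours. The difference between Py8119 and Py117 tumours was 1.19 ± 0.11 (adjusted p = 7.16e-08).

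Sqle, squalene epoxidase and a rate-limiting enzyme of the route (17311807), had 9.28, 9.51, 9.20, 9.52 and 9.40 in mixed tumours, 8.70, 9.09, 8.96, 9.21 and 9.13 in Py8119 tumours and 8.21, 7.93, 8.13, 8.32 and 8.24 in Py117 tumours. Cultures had 9.55, 9.29 and 9.34 for Py8119 and 9.43, 9.59 and 9.37 for Py117. Only the Py117 tumours lay apart from all other arrays, and Py8119 tumours lay below both cultures. Between Py8119 and Py117 tumours Sqle differed by 0.85 ± 0.11 (adjusted p = 4.06e-06).

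Msmo1, a methylsterol oxidase that acts after lanosterol (17509629), had 9.34, 9.52, 9.34, 9.57 and 9.30 in mixed tumours, 9.09, 9.36, 9.10, 9.14 and 9.21 in Py8119 tumours and 6.93, 7.0, 7.07, 7.11 and 7.23 in Py117 tumours. Cultures had 9.22, 9.12 and 8.83 for Py8119 and 8.63, 8.81 and 8.67 for Py117. The highest Py117 tumour, at 7.23, lay far below the lowest other array, a Py117 culture at 8.63. Msmo1 had the largest difference of the 16 synthesis genes between Py8119 and Py117 tumours, 2.11 ± 0.09 (4.33-fold, adjusted p = 2.79e-12).

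**Figure D1:**
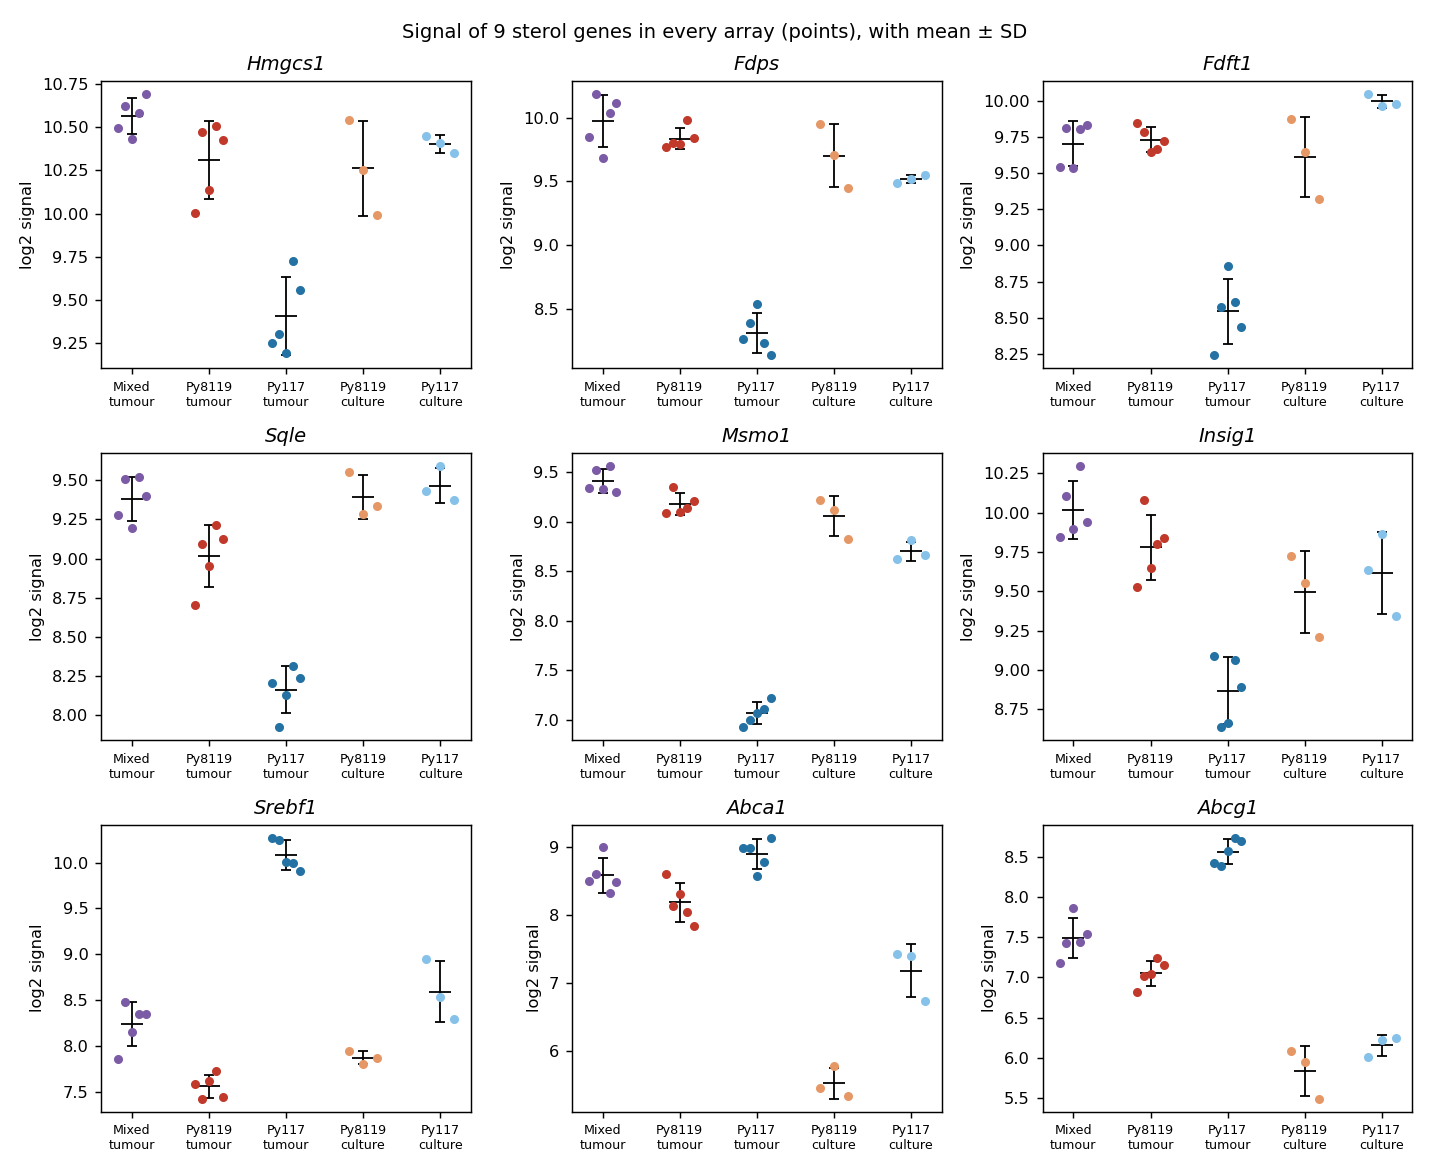
Log2 signal (vertical axes, scales differ between panels and do not start at 0) of 9 sterol genes in mixed, Py8119 and Py117 tumours and in Py8119 and Py117 cultures. Points are arrays, and bars give the mean ± SD. Hmgcs1, Fdps, Fdft1, Sqle, Msmo1 and Insig1 are lowest in Py117 tumours, whereas Srebf1, Abca1 and Abcg1 have their highest group mean there.

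The other sterol synthesis genes fell into those that differed between Py8119 and Py117 tumours and those that did not pass the test. Cyp51, lanosterol demethylase, differed by 1.07 ± 0.14 (adjusted p = 4.31e-06), Tm7sf2, a sterol reductase, by 1.06 ± 0.10 (adjusted p = 7.68e-08) and Lss, lanosterol synthase, by 0.69 ± 0.15 (adjusted p = 0.000933). Nsdhl, a sterol dehydrogenase that takes part in removing methyl groups, differed by 0.45 ± 0.10 and Sc5d, a sterol desaturase, by 0.36 ± 0.11 (adjusted p = 0.0108). Of the 8 called sterol synthesis genes, Sc5d was the only one in which the tumours overlapped. Hsd17b7, a sterol ketoreductase, had a difference of 0.10 (95% confidence interval -0.19 to 0.38), Ebp, a sterol isomerase, 0.11 (-0.10 to 0.32) and Dhcr7, which reduces a late precursor of cholesterol, 0.19 (0.01 to 0.37, adjusted p = 0.102). Dhcr7 had 8.73 to 8.80 in Py8119 tumours and 8.54 to 8.61 in Py117 tumours, so its groups did not overlap although the difference did not pass. With median centring it passed.

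By count, all 5 measured mevalonate genes and 8 of 11 sterol synthesis genes were higher in Py8119 than in Py117 tumours and none was lower, with median differences of 0.90 and 0.69. Over all genes 21% were called higher and 16.5% lower at adjusted p under 0.05, and the median difference was 0.01. Over all 27 genes, 16 were higher and 5 lower, with a median of 0.45, and 19 did not overlap between the groups, against 27.6% of all genes.

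Markers of cell division and of other cell types also differed between these tumours. Cell cycle genes (8 measured) averaged 9.45 to 9.64 in Py8119 tumours and 8.56 to 9.18 in Py117 tumours, and 7 were higher in Py8119 tumours. Macrophage markers (12) averaged 10.2 to 10.6 in Py8119 tumours and 9.43 to 9.99 in Py117 tumours, with 9 higher and 1 lower. Fibroblast markers (8) averaged 6.85 to 7.61 against 8.25 to 9.43, endothelial markers (8) 6.57 to 6.96 against 7.80 to 8.50, and adipocyte markers (9) 5.58 to 6.37 against 5.70 to 8.37, with 8 of 8, 8 of 8 and 8 of 9 lower in Py8119 tumours. T cell markers (5) averaged 5.43 to 5.90 against 6.30 to 7.81, with 5 of 5 lower, and mesenchymal markers (7) 10.92 to 11.03 against 9.05 to 9.53, with 6 of 7 higher. In bulk tumour RNA, fewer cells of a type and less RNA per cell cannot be told apart. With the adipocyte marker mean as a covariate, 16 of the 27 genes were higher and 4 lower, and without the 3 Py117 tumours of high adipocyte signal 17 were higher and 4 lower. The part of the other markers in the result was not tested.

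**Figure D2:**
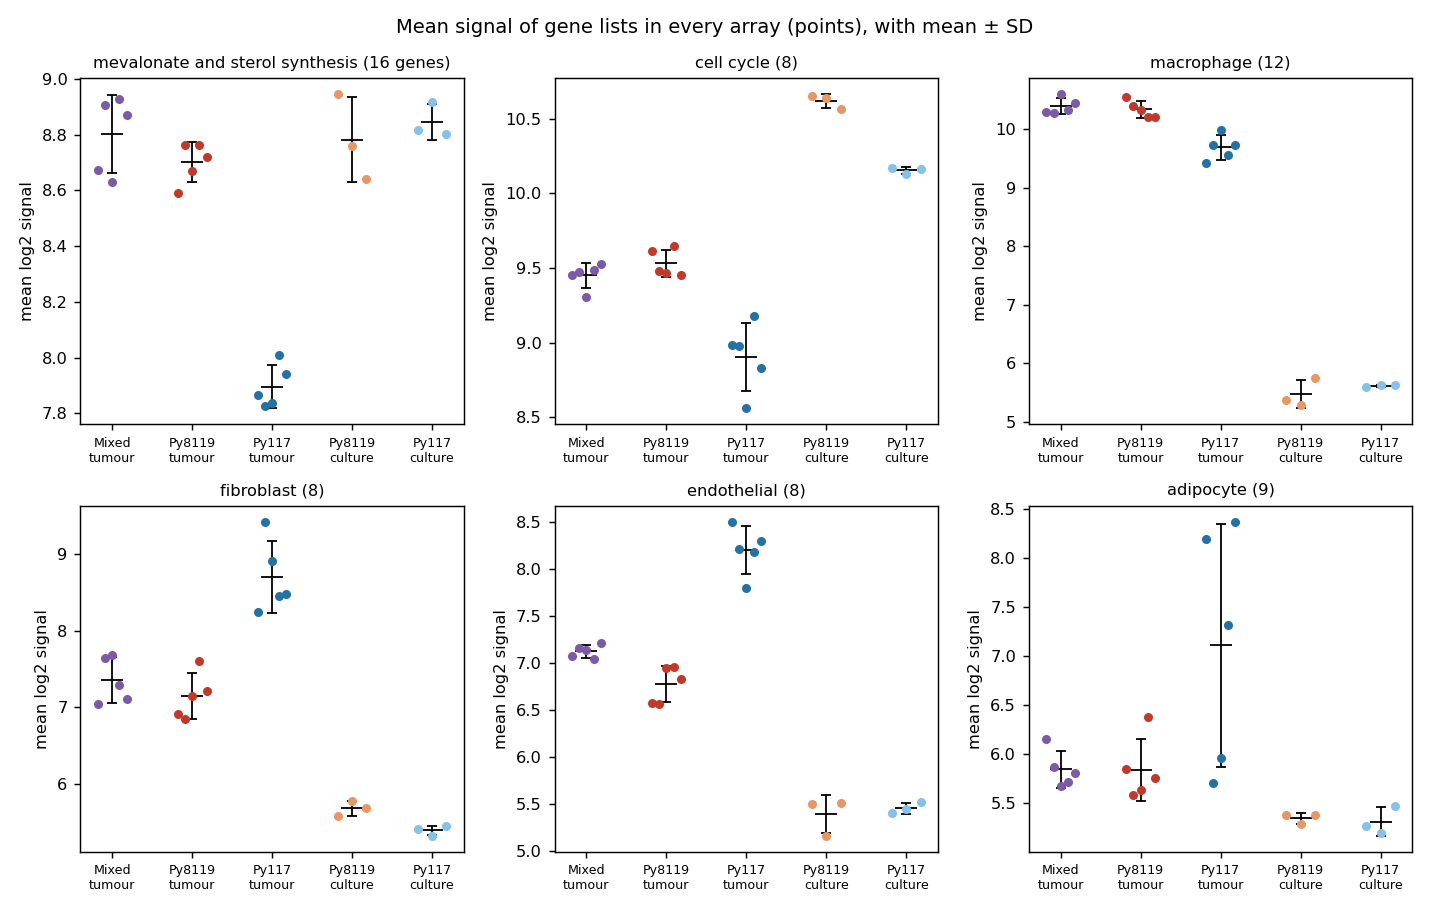
Mean log2 signal per array (vertical axes, which differ between panels and do not start at 0) of the 16 mevalonate and sterol synthesis genes and of 5 marker lists, with the number of genes in brackets. Points are arrays and bars the mean ± SD. The synthesis mean is 7.83 to 8.01 in Py117 tumours and 8.59 to 8.95 in all other arrays.

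The regulators did not move in a single direction. Insig1, which holds SREBPs in the endoplasmic reticulum and is itself an SREBP target (17435584), had 9.84, 10.11, 9.89, 10.30 and 9.94 in mixed tumours, 9.53, 10.08, 9.65, 9.80 and 9.84 in Py8119 tumours and 9.09, 8.64, 8.66, 9.06 and 8.89 in Py117 tumours. Cultures had 9.73, 9.55 and 9.21 for Py8119 and 9.64, 9.87 and 9.34 for Py117. The Py117 tumours again lay below all other arrays. Between Py8119 and Py117 tumours Insig1 differed by 0.91 ± 0.12 (adjusted p = 1.05e-05), and Srebf2, the SREBP gene that acts mainly on cholesterol genes, by 0.55 ± 0.09 (adjusted p = 4.74e-05).

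Srebf1 went the other way. It encodes the SREBP proteins that act more on fatty acid genes (probe set 17263535) and had 7.86, 8.48, 8.16, 8.35 and 8.35 in mixed tumours, 7.59, 7.43, 7.62, 7.73 and 7.45 in Py8119 tumours and 10.27, 10.24, 10.002, 9.99 and 9.91 in Py117 tumours. Cultures had 7.95, 7.81 and 7.87 for Py8119 and 8.95, 8.53 and 8.29 for Py117. Py117 tumours were the highest and Py8119 tumours the lowest group, with no overlap between the 2. The difference, Py8119 minus Py117 tumours, was -2.52 ± 0.11 (5.74-fold lower, adjusted p = 1.11e-11), and it was -2.55 with the adipocyte covariate and -2.56 without the 3 Py117 tumours of high adipocyte signal.

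Mylip, a ubiquitin ligase that limits lipoprotein uptake, was lower in Py8119 than in Py117 tumours by 0.66 on the log2 scale (difference -0.66 ± 0.10, adjusted p = 2.15e-05), with 7.57 to 7.89 in Py8119 tumours and 8.20 to 8.67 in Py117 tumours. Scap, the escort of the SREBPs, had a difference of -0.26 ± 0.10 (adjusted p = 0.0378), and its groups overlapped. That call was lost when Py117 tumour replicate 1 or 4 or Py8119 tumour replicate 2, 3 or 5 was left out (adjusted p = 0.0705 to 0.093), with the adipocyte covariate (0.214) and without the 3 Py117 tumours of high adipocyte signal (0.225). It was also lost with the mean of its 2 probe sets (0.14). Insig2, the second Insig gene, had a difference of -0.11 (95% confidence interval -0.31 to 0.10).

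Genes of sterol export had their highest tumour signals in Py117. Abca1, which loads cholesterol onto lipid-poor apolipoproteins (17425301), had 8.50, 8.61, 8.997, 8.32 and 8.48 in mixed tumours, 8.60, 8.13, 8.30, 8.04 and 7.84 in Py8119 tumours and 8.99, 8.98, 8.58, 8.78 and 9.13 in Py117 tumours. Cultures had 5.45, 5.77 and 5.33 for Py8119 and 7.42, 7.39 and 6.73 for Py117. Py8119 and Py117 tumours overlapped at a single array of each, and both cultures lay below all tumours. The difference between the tumours was -0.71 ± 0.15 (adjusted p = 0.000788).

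Abcg1, an exporter of cholesterol to lipoprotein particles (17335770), had 7.18, 7.42, 7.86, 7.44 and 7.54 in mixed tumours, 6.82, 7.01, 7.04, 7.23 and 7.15 in Py8119 tumours and 8.43, 8.38, 8.57, 8.74 and 8.70 in Py117 tumours. Cultures had 6.08, 5.94 and 5.49 for Py8119 and 6.01, 6.22 and 6.24 for Py117. The tumours stood in the order Py8119, mixed and Py117, with overlap only between Py8119 and mixed tumours. The difference between Py8119 and Py117 tumours was -1.52 ± 0.12 (2.86-fold lower, adjusted p = 1.22e-08).

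The transport genes inside the cell differed from the exporters. Stard4, a cytosolic sterol carrier that is a target of SREBP, was higher in Py8119 than in Py117 tumours by 1.04 ± 0.14 (adjusted p = 7.57e-06), with 7.63 to 8.12 in Py8119 tumours and 6.40 to 7.25 in Py117 tumours. Npc1 and Npc2, which together move cholesterol out of lysosomes, had differences of 0.17 (95% confidence interval -0.07 to 0.41) and 0.10 (-0.15 to 0.36). Neither was stable: Npc2 was 0.24 and passed without Py117 tumour 3 (adjusted p = 0.0352), and Npc1 was 0.35 and passed without the 3 Py117 tumours of high adipocyte signal (0.0396). Of the regulators, 2 were higher and 3 lower in Py8119 tumours, and of the transport genes 1 was higher and 2 were lower.

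The lines were also compared in culture, without host cells. Of 27 genes, 2 were higher and 5 lower in Py8119 than in Py117 cells, against 14.5% higher and 12.3% lower of all genes, and the median difference was -0.12. Taken over both directions, these calls were about as frequent as over all genes. Of the 16 synthesis genes, Mvd was called higher and Hsd17b7 lower. The counts depended on the fit: with low genes left out 6 were higher and 9 lower, and with median centring 6 were higher and 4 lower. The 16 synthesis genes averaged 8.64 to 8.95 in Py8119 cultures and 8.80 to 8.92 in Py117 cultures. Npc1 was higher in Py8119 cells, with 8.75, 8.60 and 8.75 against 7.57, 7.89 and 7.65 in Py117 cells (1.00 ± 0.12, adjusted p = 0.000785). Its probe set was 1 of 2 for the gene, and the mean of both gave a smaller difference, 0.66 (adjusted p = 0.00315).

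Abca1 was the gene with the largest difference in culture, -1.66 ± 0.21 (adjusted p = 0.00124), with a Py8119 mean of 5.52 ± 0.23 (SD, n = 3) near the background value. Srebf1 differed by -0.72 ± 0.17, Hsd17b7 by -0.67 ± 0.10 and Mylip by -0.64 ± 0.11. The other calls were less firm. Mvd (0.57 ± 0.15, adjusted p = 0.0282) lost its call when any Py117 culture, or Py8119 culture 1 or 3, was left out (adjusted p = 0.0595 to 0.0914). Insig2 (-0.38 ± 0.10, adjusted p = 0.0309) lost its call when any of the 6 cultures was left out (0.0523 to 0.0929).

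**Figure D3:**
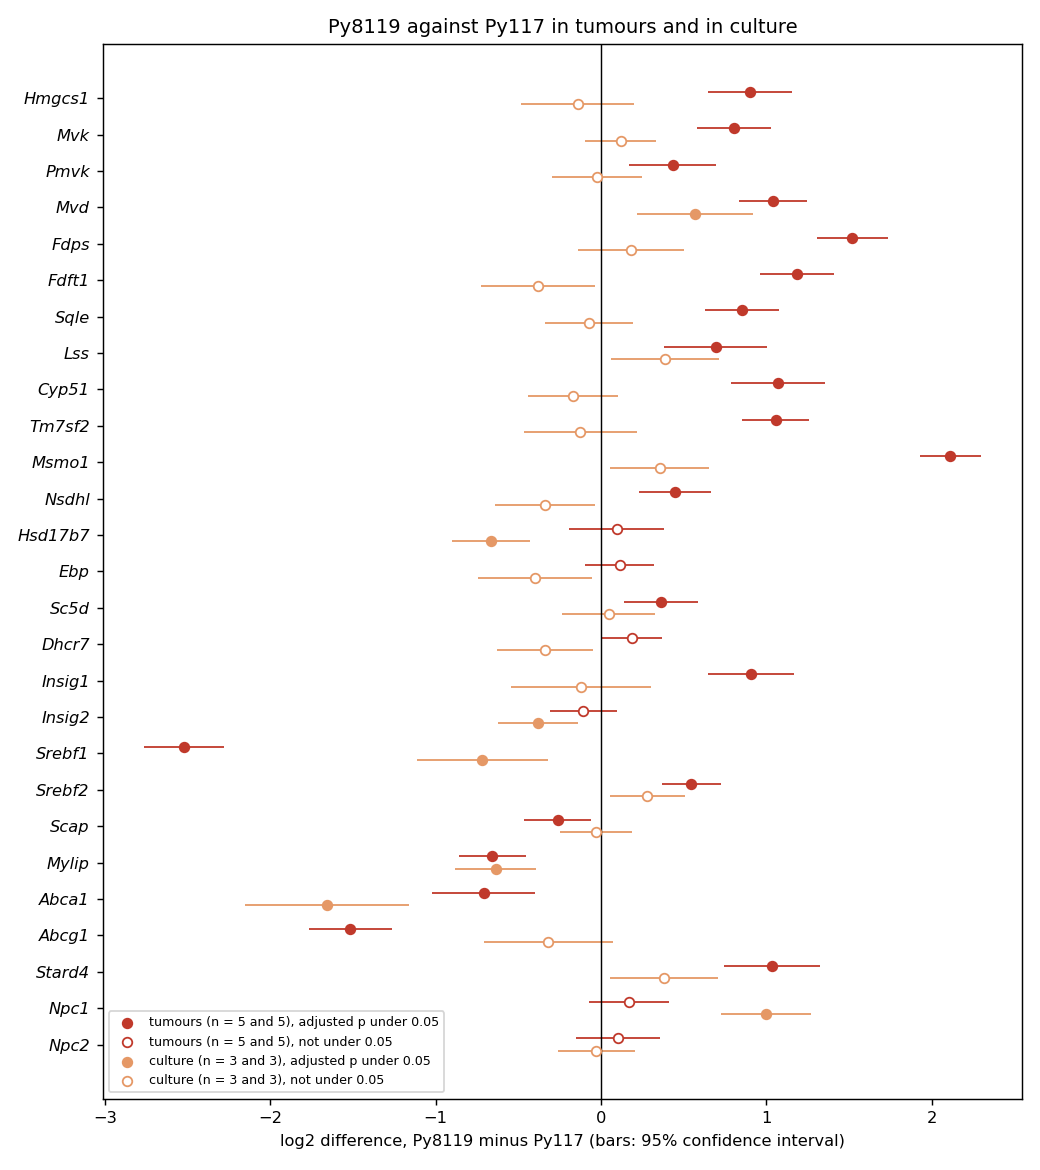
Log2 difference, Py8119 minus Py117 (horizontal axis), for the 27 genes in tumours and in culture. Points are limma estimates, bars 95% confidence intervals, and filled points passed adjusted p 0.05. Most synthesis genes lie to the right of 0 in tumours (13 of 16 called) and between -0.67 and 0.57 in culture, whereas Srebf1, Mylip, Abca1 and Abcg1 lie to the left in tumours.

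Tumours and cultures of each line were then compared, which sets tumour tissue with its host cells against cultured cells alone. In Py117, the synthesis genes were lower in tumours. All 5 mevalonate genes and 10 of 11 sterol synthesis genes were lower and none was higher, with median differences of -0.89 and -1.14. Over all genes 12.4% were higher and 18.3% lower, and the median was -0.09. Msmo1 had the largest difference, -1.64 ± 0.11 (3.11-fold lower, adjusted p = 1.76e-06), followed by Fdft1 at -1.45 ± 0.14, Cyp51 at -1.37 ± 0.16, Sqle at -1.30 ± 0.12 and Fdps at -1.21 ± 0.12.

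The remaining called synthesis genes differed between Py117 tumours and culture by -0.47 to -1.16. Dhcr7 and Hsd17b7 belonged to these, at -1.07 ± 0.10 and -1.16 ± 0.12, although neither passed the test between Py8119 and Py117 tumours. Tm7sf2 had 5.97 to 6.19 in Py117 tumours and 6.20 to 6.35 in Py117 culture and did not pass (-0.19 ± 0.10, adjusted p = 0.207). The calls of 2 genes depended on which cultures were kept: Pmvk lost its call without Py117 culture 1 or 2 (adjusted p = 0.0548 and 0.0741), and Sc5d without Py117 culture 2 (0.0589). Ebp (-0.60 ± 0.13) lost its call without the 3 tumours of high adipocyte signal (adjusted p = 0.052).

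In the same comparison 3 regulators were lower in Py117 tumours, Insig1 (-0.75 ± 0.16), Srebf2 (-0.74 ± 0.10) and Scap (-0.53 ± 0.10; with the mean of its probe sets adjusted p = 0.065), while Srebf1 (1.49 ± 0.16, adjusted p = 4.78e-05) and Mylip (0.62 ± 0.13) were higher. Stard4 was lower (-0.97 ± 0.18). Abcg1 had the widest increase, 2.41 ± 0.12 (5.31-fold, adjusted p = 2.66e-07), followed by Abca1 at 1.72 ± 0.18, Npc1 at 1.20 ± 0.15 and Npc2 at 1.18 ± 0.17. Over all 27 genes 6 were higher and 19 lower, and 26 did not overlap between tumours and cultures, against 35.6% of all genes.

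Most synthesis genes did not pass between Py8119 tumours and Py8119 culture. None of the 5 mevalonate genes passed the limma test (before adjustment Mvk did, at -0.20), and of the sterol synthesis genes 2 were higher and 3 lower. Fdps differed by 0.13 (95% confidence interval -0.12 to 0.39), Msmo1 by 0.12 (-0.12 to 0.37), Fdft1 by 0.12 (-0.15 to 0.39) and Hmgcs1 by 0.05 (-0.30 to 0.40). For these genes, all with positive estimates, the intervals leave out a fall of the size each had in Py117. Among all measured, 2 of 5 mevalonate and 4 of 11 sterol synthesis genes had positive differences, with medians of -0.10 and -0.13. Lss and Dhcr7 were called lower in tumours than in culture in both lines. Over all 27 genes 7 were higher and 6 lower, with a median of -0.09, against 16.3% and 20.9% of all genes. Centring each array on its median gave 5 higher and 12 lower, among them the mevalonate genes Mvk, Pmvk and Mvd.

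Lss and Dhcr7 were lower in Py8119 tumours than in culture, at -0.84 ± 0.12 and -0.54 ± 0.09, and Tm7sf2 was higher, at 0.99 ± 0.13 (adjusted p = 0.000221). Tm7sf2 had 6.96 to 7.35 in Py8119 tumours and 5.86 to 6.40 in Py8119 culture, with no overlap. Sqle at -0.37 ± 0.13 (adjusted p = 0.0404) and Nsdhl at 0.32 ± 0.11 (0.0421) lost their calls when single arrays were left out. For Sqle these were Py8119 culture 1 or 3 and Py8119 tumour 1, 2, 3 or 5 (adjusted p = 0.0502 to 0.144). For Nsdhl these were Py8119 culture 2 or 3 and each of the Py8119 tumours (0.057 to 0.179), and without culture 3 the Nsdhl difference was 0.21. With median centring the adjusted p for Nsdhl was 0.399.

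Scap (-0.77 ± 0.10) and Srebf2 (-0.48 ± 0.10) were lower in Py8119 tumours than in culture, as was Srebf1 (-0.31 ± 0.10, adjusted p = 0.027). The Srebf1 call was lost without Py8119 culture 1 or 3 or Py8119 tumour 2 or 5 (adjusted p = 0.0575 to 0.0925). The exporters were higher, Abca1 by 2.66 ± 0.17 (6.34-fold, adjusted p = 1.81e-06) and Abcg1 by 1.21 ± 0.14. Npc2 was higher by 1.31 ± 0.08, Mylip by 0.60 ± 0.10 and Npc1 by 0.37 ± 0.09, the last of these calls being lost with the mean of its 2 probe sets (adjusted p = 0.0734) and with median centring (0.152).

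In both lines all 8 cell cycle genes were lower and all 12 macrophage markers higher in tumours than in culture. Macrophage markers averaged 5.29 to 5.74 in the cultures, where 6 of 12 had a mean under the background value in Py8119 and 3 of 12 in Py117. Cell cycle genes averaged 10.6 to 10.7 in Py8119 culture and 10.1 to 10.2 in Py117 culture. Fibroblast markers were higher in tumours for 7 of 8 genes in Py117 (median difference 2.63), and in Py8119 4 were higher and 1 lower (0.96). Endothelial markers were higher for 8 of 8 genes in Py117 (2.65) and 7 of 8 in Py8119 (1.11), and T cell markers for 4 of 5 in each line (1.87 and 0.59). The part of these markers in the differences was not tested.

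**Figure D4:**
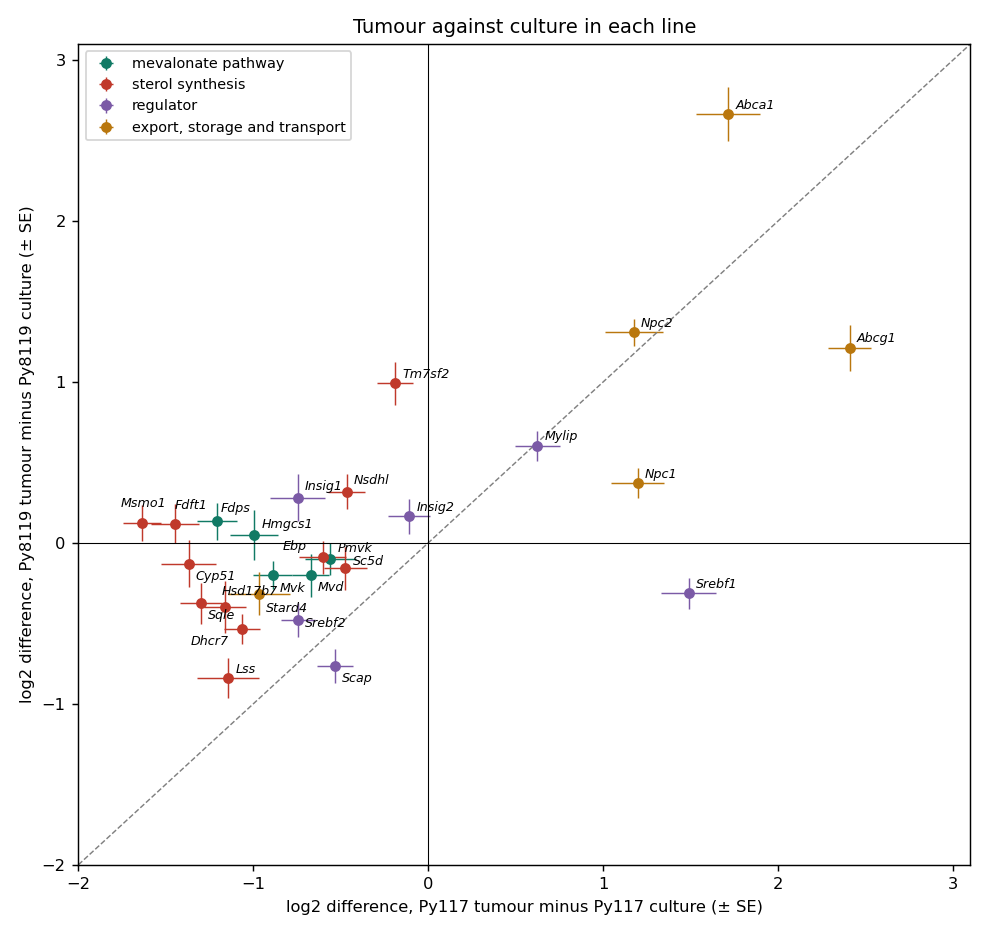
Log2 difference of tumour minus culture in Py117 (horizontal axis) and in Py8119 (vertical axis) for the 27 genes, with ± SE and coloured by role. The dashed line marks equal differences in both lines. Most synthesis genes lie to the left of 0 and near 0 on the vertical axis. Of these genes Tm7sf2 (0.99), Lss (-0.84) and Dhcr7 lie furthest from 0 on that axis. Abca1, Abcg1, Npc1, Npc2 and Mylip lie at the upper right.

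Whether the lines differed in their change from culture to tumour was tested as an interaction, the Py8119 minus Py117 difference in tumours less that in culture. Of 27 genes, 13 had a positive and 3 a negative interaction, against 7.5% and 5.99% of all genes, and the median was 0.53 against 0.03. In mevalonate genes 3 of 5 were positive and in sterol synthesis genes 8 of 11, and none was negative. Some marker lists also had interactions. Fibroblast markers had a negative interaction in 7 of 8 genes (median -1.78), endothelial in 7 of 8 (-1.24), T cell in 2 of 5 (-1.19) and adipocyte in 1 of 9 (-1.11). Macrophage markers had a positive one in 4 of 12 (0.54), epithelial in 2 of 8 (0.50) and cell cycle genes in 1 of 8 (0.19). Of 7 mesenchymal markers 2 had a positive and 3 a negative one. The part of these markers in the result was not tested. Msmo1 had the largest, 1.76 ± 0.15 (adjusted p = 6.47e-07), followed by Fdft1 at 1.57 ± 0.19, Fdps at 1.34 ± 0.16, Cyp51 at 1.24 ± 0.22, Tm7sf2 at 1.18 ± 0.17 and Hmgcs1 at 1.04 ± 0.21. Sqle, Nsdhl, Hsd17b7, Mvk and Dhcr7 had interactions between 0.53 and 0.93. For Hsd17b7 the call was lost without Py117 culture 2 or Py8119 culture 2 (adjusted p = 0.061 and 0.0516).

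Pmvk (0.46), Mvd (0.47), Ebp (0.51), Sc5d (0.32) and Lss (0.30) had positive interactions that did not pass, with adjusted p between 0.055 and 0.447, as did Stard4 (0.65, adjusted p = 0.0756) and Npc2 (0.13). Single arrays decided some of these. Mvd passed without Py8119 culture 1 or Py8119 tumour 4 (adjusted p = 0.0215 and 0.0397), Ebp without Py117 culture 1, Py117 tumour 3 or Py8119 tumour 1 (0.0133 to 0.0349) and Stard4 without Py117 tumour 5 or Py8119 tumour 1 (0.041 and 0.0442). Without the 3 Py117 tumours of high adipocyte signal, Pmvk (0.70, adjusted p = 0.0126) and Stard4 (0.93, 0.0143) passed. Among regulators Insig1 had 1.03 ± 0.22 and Srebf1 -1.80 ± 0.19 (adjusted p = 4.75e-06), and Scap, Mylip, Srebf2 and Insig2 lay between -0.23 and 0.27. Abcg1 (-1.20 ± 0.19) and Npc1 (-0.83 ± 0.18) had negative interactions and Abca1 a positive one (0.95 ± 0.26, adjusted p = 0.0221). Abca1 lost its call without Py117 culture 1 or 2 or Py8119 culture 3 (adjusted p = 0.0679 to 0.0722), and Npc1 with the mean of its probe sets (0.0678). The exporters Abca1 and Abcg1 thus had interactions of opposite sign.

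Mixed tumours were compared with Py8119 and Py117 tumours, and since both comparisons with Py117 use the same Py117 arrays, they are not independent. Against Py117 tumours 17 genes were higher and 3 lower in mixed tumours, against 19.2% and 16.9% of all genes, with medians of 0.54 over the 27 genes and -0.03 over all genes. All 5 mevalonate and 8 of 11 sterol synthesis genes were higher. Msmo1 differed by 2.35 ± 0.09 in mixed against Py117 tumours and by 2.11 ± 0.09 in Py8119 against Py117 tumours, Fdps by 1.66 ± 0.10 and 1.52 ± 0.10, and Srebf1 by -1.84 ± 0.11 and -2.52 ± 0.11. Abcg1 (-1.08 ± 0.12) and Mylip (-0.64 ± 0.10) were lower in mixed than in Py117 tumours, and Abca1 had a difference of -0.31 (95% confidence interval -0.63 to -0.00, adjusted p = 0.112). That of Abca1 passed without Py117 tumour 3 or mixed tumour 3 (adjusted p = 0.0493 and 0.0304).

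Npc2 was higher in mixed than in Py117 tumours by 0.41 ± 0.12 (adjusted p = 0.0133), a call lost with the adipocyte covariate (0.15) and without the 3 Py117 tumours of high adipocyte signal (0.251). Nsdhl at 0.29 ± 0.10 (adjusted p = 0.0341) lost its call under both (0.0999 and 0.0743) and without Py117 tumour 1, 3 or 5 or mixed tumour 2, 4 or 5 (0.0518 to 0.0983). Fibroblast and endothelial markers averaged 7.04 to 7.68 and 7.05 to 7.22 in mixed tumours, below the Py117 tumours, and macrophage markers 10.3 to 10.6. The part of these cells was not tested.

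Against Py8119 tumours, only Srebf1 passed in mixed tumours (0.68 ± 0.11, adjusted p = 0.00253), with 1 of 27 genes higher and none lower against 1.61% and 0.162% of all genes. Of all genes called in this comparison, 90.9% were higher in mixed tumours. The share of all genes under an unadjusted p of 0.05 was not counted. At that threshold, 8 further members were higher in mixed tumours and none was lower. Their 95% confidence intervals were those of Hmgcs1 (0.00 to 0.51), Sqle (0.14 to 0.59), Msmo1 (0.05 to 0.41), Abcg1 (0.19 to 0.69), Abca1 (0.08 to 0.71), Stard4 (0.05 to 0.62), Cyp51 (0.01 to 0.58) and Npc2 (0.05 to 0.56). The interval for Fdft1 was -0.25 to 0.20 and for Mvk -0.31 to 0.14.

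The place of the mixed mean between the other tumours was expressed on the linear scale, with 0% for the Py117 mean and 100% for the Py8119 mean. Over the 21 genes called between Py8119 and Py117 tumours it ran from 49.9% for Abca1 to 163% for Sqle, with a median of 118%. Of these genes 12 lay above 100%, and of the 13 called synthesis genes 9 did. Nsdhl (64.7%), Tm7sf2 (77.4%), Mvk (88.3%) and Fdft1 (97.1%) were the synthesis genes below 100%. Srebf1 lay at 87.1% and Abcg1 at 80.3%. A place above 100% is a mean beyond that of Py8119 tumours, and the test of mixed against Py8119 tumours did not pass for any of these 12 genes. The share of each line in the grown mixed tumours was not measured here. Epithelial markers averaged 7.30 to 7.67 in mixed, 6.38 to 6.54 in Py8119 and 8.67 to 9.36 in Py117 tumours. Mesenchymal markers averaged 10.80 to 10.85, 10.92 to 11.03 and 9.05 to 9.53. The part of cell shares in these positions was not tested.

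**Figure D5:**
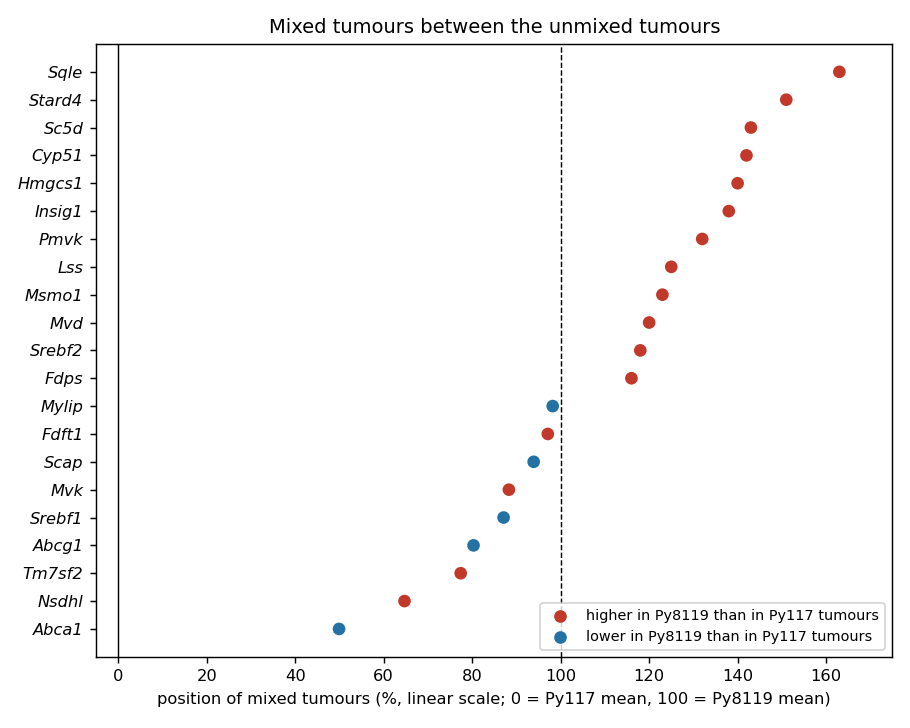
Position of the mixed tumour mean (horizontal axis, percent on the linear scale, 0 for Py117 and 100 for Py8119 tumours) for the 21 genes called between Py8119 and Py117 tumours. Points are coloured by the direction of that call. Synthesis genes run from 64.7% to 163%, and the 5 genes lower in Py8119 tumours run from 49.9% to 98.2%.

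Within some groups arrays stood high or low in most synthesis genes at once. In mixed tumours 2 and 4 all 16 lay above the group mean, in mixed tumour 5 it was 13, and in mixed tumours 1 and 3 it was 1 and 2. The means of the 16 genes were 8.91, 8.93 and 8.87 in mixed tumours 2, 4 and 5 and 8.67 and 8.63 in mixed tumours 1 and 3. In Py8119 culture 1, 15 of 16 lay above the group mean, against 2 of 16 in Py8119 culture 3. In Py117 cultures 1 to 3 the counts were 6, 12 and 3 of 16. In Py8119 tumours 1 to 5 the counts were 5, 12, 8, 10 and 9 of 16, and in Py117 tumours 7, 6, 4, 12 and 10, which lay nearer to an even split. The share of all genes above the group mean in each array was not counted. Mixed tumour 3 had the highest macrophage (10.60) and T cell (7.05) and the lowest cell cycle mean (9.31) of its group. Mixed tumour 1 had 10.30, 6.29 and 9.45. Whether the synthesis counts follow a shift of the whole array was not tested. The SD within a group had a median of 0.109 to 0.175 over the 27 genes in the 5 groups, against 0.132 to 0.205 over all genes.

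Genes of neighbouring pathways differed in both directions between tumours. Counts of these lists stand against 21% higher and 16.5% lower over all genes, and several lie near those shares. Of 11 fatty acid synthesis genes 1 was higher and 4 were lower in Py8119 than in Py117 tumours. Mid1ip1, an activator of acetyl-CoA carboxylase, was higher by 0.49 ± 0.08, while Scd1, stearoyl-CoA desaturase, differed by -1.63 ± 0.29, Acss2, acetyl-CoA synthetase, by -0.89 ± 0.14 and Fasn, fatty acid synthase, by -0.79 ± 0.14. Of 12 genes of the isoprenoid and prenylation branch 4 were higher and 2 lower, led by Rabggtb, a subunit of Rab geranylgeranyl transferase, at 1.12 ± 0.25 and Fnta, the subunit that farnesyl and geranylgeranyl transferases share, at 0.89 ± 0.10. Pdss2, of ubiquinone synthesis, was also higher (0.61 ± 0.13), and Pggt1b (-0.38 ± 0.10) and Nus1 (-0.34 ± 0.08) were lower. The 3 Py117 tumours of high adipocyte signal were in this comparison, and the part of fat tissue in the fatty acid genes was not tested. Median differences were -0.19 for fatty acid and 0.01 for isoprenoid genes.

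Of 6 further genes of SREBP processing and sterol sensing 2 were higher in Py8119 tumours, Erlin1 (0.68 ± 0.13), an endoplasmic reticulum protein of sterol sensing, and Mbtps1 (0.32 ± 0.08), the protease that makes the initial cut in SREBPs. Of 22 genes of sterol transport and oxysterol metabolism 8 were higher and 8 lower. The higher ones included Ch25h, cholesterol hydroxylase, at 1.29 ± 0.32, Tmem97, an endoplasmic reticulum protein that binds Npc1, at 1.00 ± 0.11 and Lrp1, a lipoprotein receptor, at 0.85 ± 0.14. The lower ones included Scarb2 (-1.65 ± 0.11), a lysosomal membrane protein, Stard5 (-1.63 ± 0.10), a START domain protein, and Vldlr (-1.20 ± 0.20), a lipoprotein receptor. Of 6 accessory genes Cyb5r3 (1.80 ± 0.15) and Cyb5b (0.84 ± 0.12) were higher, and Sec14l2 (-1.92 ± 0.16), Acat1 (-0.47 ± 0.09) and Lbr (-0.43 ± 0.14) were lower.

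Between Py117 tumours and Py117 culture, 3 of 11 fatty acid genes were higher (12.4% of all genes were), Fads1 (1.34 ± 0.16), Fads2 (0.78 ± 0.16) and Acss2 (0.58 ± 0.16), and 3 were lower (18.3% of all genes), Mid1ip1 (-1.10 ± 0.10), Elovl6 (-0.70 ± 0.19) and Elovl5 (-0.35 ± 0.12). Between Py8119 tumours and Py8119 culture none was higher and 7 of 11 were lower, against 16.3% and 20.9% of all genes, with Fasn at -0.92 ± 0.13, Elovl6 at -0.68 ± 0.10 and Me1 at -0.59 ± 0.11. Of the 11 fatty acid genes, 1 had a positive and 2 a negative interaction, against 7.5% and 5.99% of all genes. The desaturases Fads1 and Fads2 had interactions of -1.35 ± 0.19 and -1.06 ± 0.20, the opposite sign to the synthesis genes. Mid1ip1 had 0.73 ± 0.13, the same sign as the synthesis genes. Tmem97 was lower in tumours than in culture in both lines (-1.31 ± 0.14 in Py117, -1.25 ± 0.09 in Py8119). Ch25h was higher in Py8119 tumours than in Py8119 culture by 4.09 ± 0.16, where its culture mean of 4.99 lay under the background value.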

How the data were processed

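The authors deposited 1 table of log2 signals for the 21 arrays. RMA and limma are listed among the tools in the submitters' processing notes, with versions, genome build and further steps not given in the sources used here. Labels call the samples biological replicates without naming separate mice or cultures, so p-values measure the spread between these samples. They give no batch or scan date, so batches could not be examined, and cultures and tumours cannot be told apart from any batch between them. The number of arrays limits the precision.

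Of 41345 probe sets, 23521 had 1 gene symbol in GEO's platform annotation, 1814 several and 16010 none. Those with 1 symbol were used, 1 per gene by the highest mean over 21 arrays. Differences were fitted with limma 3.58.1 (R 4.3.3, lmFit and eBayes) over all 22180 genes and called at Benjamini-Hochberg adjusted p under 0.05. Cultures (6 arrays), tumours (15) and each line (8) were fitted apart, and the interaction over the 16 unmixed arrays. The procedure was tested on simulated data. The members, gene lists and tests were chosen with earlier results of these data known. Every listed gene is named. For Py8119 against Py117 tumours, up to 3 called genes per direction with the largest difference are named from each neighbouring list. In the other comparisons only a part of such genes is named, and some left out had larger differences. Certain genes are not reported here. Labels do not say whether equal replicate numbers pair samples, and the main tests did not pair them. Correlations of deviations from group means ran from -0.234 to 0.257 for equal numbers and from -0.28 to 0.209 for others. Of 5 mixed tumours, 4 correlated best with the Py117 tumour of their own number, as did 2 of 3 Py8119 cultures with Py117 cultures. Between Py8119 and Py117 tumours it was 1 of 5, and between mixed and Py8119 tumours 0 of 5. Pairing was thus left undecided.

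Alternatives were quantile normalization, median centring, leaving out low genes, the mean of probe sets, array weights, a replicate block, a threshold of 0.01, a single fit of every array, a robust prior with trend, leaving out each array and an adipocyte covariate. Leaving out the 3 Py117 tumours of high adipocyte signal was added after seeing the data. Promoters are RefSeq windows of GRCm38.p6. Figures were drawn with matplotlib 3.10.9.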

Additional observations from a re-analysis of the deposited data

Results flagged for a closer look

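Mixed tumour 1 lay far below the other mixed tumours in 2 genes. Pmvk was at 7.73 there and at 8.16 to 8.32 in the other 4, and Ebp at 8.75 and at 9.13 to 9.15. Of 81 sets of 5 tumours examined (27 genes in 3 groups), these 2 were marked, and chance marks about 1 in 20.

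The difference between the lines was not the same in tumours as in culture for 16 genes by the interaction test. It was more positive in tumours for Hmgcs1 (1.04), Mvk (0.69), Fdps (1.34), Fdft1 (1.57), Sqle (0.93), Cyp51 (1.24), Tm7sf2 (1.18), Msmo1 (1.76), Nsdhl (0.79), Hsd17b7 (0.76), Dhcr7 (0.53), Insig1 (1.03) and Abca1 (0.95). It was more negative for Srebf1 (-1.80), Abcg1 (-1.20) and Npc1 (-0.83). The calls of Abca1, Hsd17b7 and Npc1 did not hold in every alternative.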

How the results depend on the processing

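Over the 27 genes and 7 comparisons, 4104 alternative values were computed: 3918 kept direction and call, 99 gained and 87 lost a call, and none changed sign as a called value. In Py8119 against Py117 culture (2 higher, 5 lower), higher calls were 1 at adjusted p 0.01 and with quantile normalization, 6 with median centring, low genes left out or the robust prior, 4 with array weights or 1 fit of all arrays, and 1 to 3 leaving out single arrays; lower calls were 3 at 0.01, 9 with low genes left out or the robust prior and 8 in 1 fit. In mixed against Py8119 tumours (1 higher) they were 2 with low genes left out, 3 with array weights, 2 with the replicate block and 1 to 2 leaving out single arrays. In Py8119 tumours against culture lower calls were 12, not 6, with median centring. Counts for the other comparisons stayed within 1.5 times. Median centring moved the median of all genes by 0.15 in culture, 0.10 between Py8119 and Py117 tumours, -0.16 between Py117 tumour and culture and -0.21 between Py8119 tumour and culture, and the share of called genes that were higher was then 70.4% (54.0% otherwise), 68.0% (56.0%), 22.6% (40.5%) and 20.7% (43.8%). Leaving out low genes moved it by 0.11 between Py8119 and Py117 tumours and 0.13 between mixed and Py117 tumours. The replicate block, which treats equal numbers as pairs, changed no other count of members by over 1.5 times. Leaving out single arrays added calls: in culture Fdft1 or Nsdhl (without Py8119 culture 1; adjusted p = 0.0368 and 0.0371), Msmo1 or Stard4 (Py8119 culture 3; 0.0307 and 0.0289) and Ebp (Py117 culture 1; 0.0258); for Py8119 tumour against culture Hsd17b7 (tumour 2; 0.0226) and Stard4 (culture 3; 0.0338); between Py8119 and Py117 tumours Npc2 (Py117 tumour 3; 0.0352); in mixed tumours against Py117 Dhcr7 (mixed 1; 0.0211), Hsd17b7 (Py117 tumour 4, mixed 3 or Py8119 tumour 2; 0.0339 to 0.0468), Scap (mixed 5 or Py8119 tumour 4; 0.0281 and 0.0386), Npc1 (Py117 tumour 5; 0.0331) and Abca1 (Py117 tumour 3 or mixed 3; 0.0493 and 0.0304), in the interaction Mvd, Ebp and Stard4 (2, 3 and 2 arrays; 0.0133 to 0.0442), and in mixed against Py8119 tumours Abcg1 (mixed 1; 0.0283). The cause of these changes was not tested.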

Other observations

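In culture, Lrp1, a lipoprotein receptor, was higher in Py8119 than in Py117 cells by 2.93 ± 0.11 (log2 difference ± SE, adjusted p = 5.78e-06, limma, n = 3 and 3), and Fads1, a fatty acid desaturase, by 1.33 ± 0.13. Ch25h was lower (-1.60 ± 0.20), and its Py8119 mean of 4.99 lay under the background value. Of 22 genes of sterol transport and oxysterol metabolism 4 were higher and 8 lower in Py8119 cells, against 14.5% and 12.3% of all genes. Between mixed and Py8119 tumours, Scarb2, a lysosomal membrane protein, was the only one of these 22 to pass, higher in mixed tumours by 0.61 ± 0.11 (adjusted p = 0.00404).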
